A study of Homo sapiens with 9 samples.

Results

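The ligand TRAIL, its death and decoy receptors, the related receptors FAS and TNFRSF1A, and 3 proteins that work beneath them were examined in TE13 cells, an established esophageal squamous cell carcinoma (ESCC) line. The 10 genes were chosen by name, with earlier results of these data known. They were TNFSF10, TNFRSF10A, TNFRSF10B, TNFRSF10C, TNFRSF10D, FAS, TNFRSF1A, FADD, CFLAR and RIPK1, and each had 1 row among the 60605 genes of the deposited table. Cells had received either a control siRNA or 1 of 2 siRNAs, named PARylator siRNA.1 and siRNA.2, directed at the long noncoding RNA PARylator (LINC00885). Poly(A)+ RNA was sequenced from 3 biological replicates per condition, 9 libraries in all, and the duration of transfection for these libraries was not given in the sources used here. All 9 libraries came from 1 cell line and carried no other labelled treatment.

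TRAIL, encoded by TNFSF10, and FAS ligand bind receptors that carry an intracellular death domain. The clustered receptors recruit the adaptor FADD, which brings procaspase-8 together so that it activates itself, and CFLAR (c-FLIP) enters the same complex and limits that activation. Decoy receptors bind TRAIL without a functional death domain, so ligand held by them is not passed on. TNFR1, the product of TNFRSF1A, first assembles a complex with the kinase RIPK1 that signals through NF-κB, and RIPK1 can later take part in apoptosis or necroptosis. TNFSF10 is also widely known as an interferon-inducible gene.

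The promoter of TNFSF10 is shown first because the gene had the largest fold change of the 10 genes against control siRNA. TNFSF10 (ENSG00000121858) lies on chromosome 3, between 172505508 and 172523475 on the minus strand of GRCh38. The RefSeq promoter window of GRCh38.p14 runs from 250 bases before the start site at 172523430, and the 205 bases printed lie outside the annotated gene, at chr3:172523476-172523680 on the minus strand. Capitals mark a match to GAAANNGAAA, the core letters of the interferon-stimulated response element (ISRE), read on the opposite strand from 172523608 to 172523617, between positions -187 and -178 from the start site.
TNFSF10 promoter: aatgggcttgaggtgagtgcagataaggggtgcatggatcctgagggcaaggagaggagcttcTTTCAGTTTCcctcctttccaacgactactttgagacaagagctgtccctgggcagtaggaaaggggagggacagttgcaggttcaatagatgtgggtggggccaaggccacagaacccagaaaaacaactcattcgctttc
Searched on both strands in the 250 bases before each start site, this motif occurred in 3.02% of 35116 RefSeq windows and in 3.71% of 27305 genes. A window was at hand for 6 of the 10 genes, 13 windows in all, and the motif was found for TNFSF10 and RIPK1. For RIPK1 the same site was matched in 2 overlapping windows inside the gene, at 3068128 to 3068427 and 3068244 to 3068543 of chromosome 6. That site lay at least partly on bases annotated as exon, so its sequence is not printed. The RIPK1 window at the start of the gene, 3063717 to 3064016, held no match. The letters TTCNNNGAA, the core of the interferon gamma-activated site (GAS), occurred in none of the 13 windows and in 6.57% of all windows. These matches describe letters in a window and were not tested for binding.

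The libraries held between 15337917 and 22559998 counts on genes. LINC00885, the targeted RNA, had 6, 7 and 12 counts after control siRNA, 4, 5 and 2 after siRNA.1 and 2, 0 and 4 after siRNA.2. Its log2 fold change was -1.21 (SE 0.95, adjusted p = 0.376, edgeR) after siRNA.1 and -2.33 (SE 1.01, adjusted p = 0.0659, edgeR) after siRNA.2, so at this depth the knockdown did not pass the test. By qPCR, the study reported siRNA knockdown of this RNA in TE13 cells. All 8 squamous epithelial markers examined (KRT5, KRT14, KRT6A, KRT17, TP63, SFN, CDH1 and EPCAM) were above 0, and their summed level was 939 to 960 FPKM after control siRNA, 736 to 767 after siRNA.1 and 733 to 748 after siRNA.2. These markers moved both ways, with mean KRT5 at 142, 40.0 and 55.8 FPKM and SFN at 305, 180 and 182 in the 3 conditions, but KRT6A at 78.7, 102 and 118 and EPCAM at 99.0, 137 and 136. FPKM is the count scaled to the gene's exonic length in kilobases and to the library's total count. The sum of 8 blood cell markers, of which MS4A1 was at 0 in every library, was 0.54 to 1.24 FPKM after control siRNA, 3.93 to 4.58 after siRNA.1 and 3.87 to 4.6 after siRNA.2. Most of the sum with either siRNA was LYZ, at means of 0.317, 2.79 and 3.08 FPKM in the 3 conditions. PTPRC, CD14 and CSF1R were also higher with either siRNA, whereas CD3E, CD2 and CD79A had means under 0.1 FPKM in every condition. The sum of 4 fibroblast markers was 1.41 to 2.4 FPKM and that of 3 endothelial markers 0.42 to 1.54 FPKM over all libraries, both lower with either siRNA. All 9 libraries came from 1 cell line, and the part of these markers in the results on the death receptor genes was not tested. In bulk RNA, fewer cells that express a marker and less of its RNA per cell cannot be told apart.

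Against control siRNA, the ligand TNFSF10, the death receptors TNFRSF10A and TNFRSF10B and the inhibitor CFLAR rose after siRNA.1, and the decoy receptor TNFRSF10D and the kinase RIPK1 fell. These 6 of 10 genes (4 higher, 2 lower) had an adjusted p under 0.05 in edgeR's quasi-likelihood test with Benjamini-Hochberg adjustment over 21395 genes, of which 30.3% were called, 15.0% higher and 15.2% lower. With siRNA.2, 9 of 10 were called (6 higher, 3 lower), with FAS and FADD also higher and TNFRSF1A also lower, against 30.9% of all genes tested, 15.8% higher and 15.1% lower. In limma at each pseudocount, 5 were called after siRNA.2 (3 higher, 2 lower) against 24.8% to 25.1% of all genes, and edgeR called 6 without control replicate 3 or siRNA.2 replicate 2 (3 higher, 3 lower) against 27.3% and 27.0%. Among genes averaging 1 FPKM or more, 6 of the 9 tested here were called after siRNA.1, against 46.4% of all genes. With siRNA.2 these were 8 of 9, against 47.2%. Over the 10 genes, the median log2 fold change was 0.17 after siRNA.1 and 0.16 after siRNA.2, beside -0.00 and 0.00 over all genes tested. Requiring in addition a log2 change of 0.5 or more in either direction left TNFSF10 and TNFRSF10D after siRNA.1, 2 genes against 11.3% of all genes, and these with CFLAR after siRNA.2, 3 genes against 11.7%. Both comparisons used the same 3 control libraries, so their values are set side by side and are not independent.

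**Figure D1:**
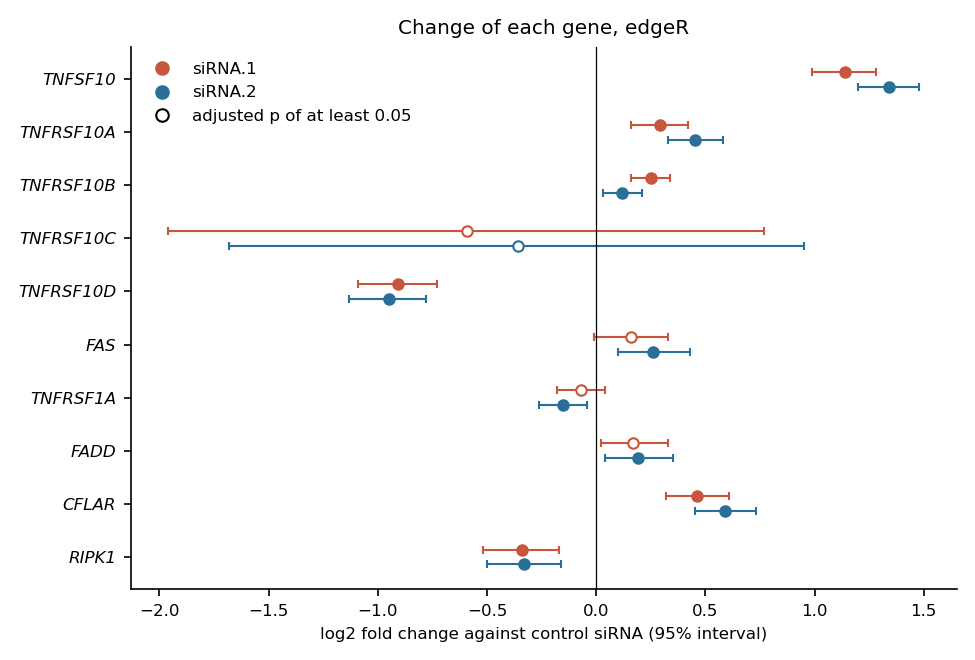
Log2 fold change against control siRNA (x axis) of each of the 10 genes (y axis) after siRNA.1 and siRNA.2, with edgeR's 95% interval; open circles have an adjusted p of at least 0.05. TNFSF10 lies farthest to the right at 1.14 and 1.34, TNFRSF10D lies at -0.91 and -0.95, and TNFRSF10C has the widest intervals.

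TNFSF10 was measured at 7.79, 8.33 and 8.36 FPKM after control siRNA, at 18.37, 19.07 and 17.46 after siRNA.1 and at 23.00, 19.86 and 19.62 after siRNA.2. Every siRNA library lay above every control library, and every siRNA.2 library lay above every siRNA.1 library. The means were 8.16 ± 0.321, 18.3 ± 0.807 and 20.8 ± 1.89 FPKM (SD, n = 3 each). The rise was 2.20-fold after siRNA.1 (log2 1.14, SE 0.07, adjusted p = 9.72e-52, edgeR) and 2.53-fold after siRNA.2 (log2 1.34, SE 0.07, adjusted p = 2.80e-74, edgeR). In absolute size these changes exceeded those of 86.4% and 89.5% of the genes tested. The counts behind these levels ran from 411 to 1567 per library. In the control libraries the mean level of TNFSF10 was above that of 75.1% of the genes tested. FASLG, which encodes FAS ligand, had 0 counts in all 9 libraries.

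TNFRSF10A and TNFRSF10B encode DR4 and DR5, the TRAIL receptors with a functional death domain. TNFRSF10A (ENSG00000104689, minus strand, 23190452 to 23225102 of chromosome 8) was at 19.02, 17.56 and 17.58 FPKM after control siRNA, 21.87, 22.38 and 23.07 after siRNA.1, and 23.59, 26.28 and 24.78 after siRNA.2. The conditions did not overlap, with control lowest and siRNA.2 highest. The rise was 1.22-fold after siRNA.1 (log2 0.29, SE 0.07, adjusted p = 1.01e-04, edgeR) and 1.37-fold after siRNA.2 (log2 0.45, SE 0.06, adjusted p = 5.34e-11, edgeR). TNFRSF10B (ENSG00000120889, minus strand, 23020133 to 23069031 of the same chromosome) was at 43.73, 41.96 and 40.88 FPKM after control siRNA, 49.87, 50.88 and 52.22 after siRNA.1, and 45.77, 49.54 and 43.29 after siRNA.2. All siRNA.1 libraries lay above all controls, whereas the siRNA.2 libraries overlapped the controls. The change was 1.19-fold after siRNA.1 (log2 0.25, SE 0.05, adjusted p = 6.37e-07, edgeR) and 1.09-fold after siRNA.2 (log2 0.12, SE 0.05, adjusted p = 0.0291, edgeR). The call after siRNA.2 was lost in 8 of 19 alternatives, among them DESeq2 (adjusted p = 0.0727), limma at each pseudocount (adjusted p = 0.0916 to 0.0941) and edgeR without control replicate 2, control replicate 3 or siRNA.2 replicate 2 (adjusted p = 0.0806, 0.160 and 0.455), and the log2 fold change fell from 0.12 to 0.06 without siRNA.2 replicate 2. Genes annotated on the opposite strand overlap both, TNFRSF10A-AS1 (90 to 170 counts per library) and ENSG00000246582 (102 to 193) at TNFRSF10A and RHOBTB2 (528 to 815) at TNFRSF10B. Whether counting used strand was not given in the sources used here, so reads of opposite-strand partners may not be told apart.

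The decoy receptor TNFRSF10D fell with either siRNA, opposite in sign to the TRAIL death receptors. TNFRSF10D (ENSG00000173530, DcR2, minus strand, 23135588 to 23164027 of chromosome 8), whose product has a truncated death domain, was at 10.83, 11.23 and 13.17 FPKM after control siRNA, 6.32, 6.27 and 6.51 after siRNA.1, and 6.67, 5.55 and 6.12 after siRNA.2. Every siRNA library lay below every control library, and the siRNA.1 and siRNA.2 libraries overlapped. Expression was 0.532-fold of control after siRNA.1 (log2 -0.91, SE 0.09, adjusted p = 4.72e-22, edgeR) and 0.516-fold after siRNA.2 (log2 -0.95, SE 0.09, adjusted p = 6.37e-25, edgeR). TNFRSF10C (ENSG00000173535, DcR1, plus strand, 23102921 to 23117445 of chromosome 8), whose product is anchored to the membrane without a cytoplasmic domain, had only 10, 10 and 10 counts after control siRNA, 4, 5 and 12 after siRNA.1, and 12, 4 and 14 after siRNA.2. The conditions overlapped, and its log2 fold change was -0.59 after siRNA.1 (95% interval -1.96 to 0.77, adjusted p = 0.588, edgeR) and -0.36 after siRNA.2 (95% interval -1.68 to 0.95, adjusted p = 0.755, edgeR), so a change of the size seen for TNFRSF10D was not excluded at this depth. The 2 decoy genes are close paralogs, and reads could be split between them. ENSG00000284948 (0 to 18 counts per library) and ENSG00000284956 (0 to 2) overlap TNFRSF10C on the same strand. Their reads may not be told apart from its own, even where counting used strand. TNFRSF6B, which encodes a soluble decoy for FAS ligand, had 0 counts in all 9 libraries.

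The decoy receptors together were 15.2%, 16.4% and 18.8% of the summed FPKM of the 4 TRAIL receptors after control siRNA, 8.27%, 8.13% and 8.45% after siRNA.1, and 9.24%, 6.97% and 8.74% after siRNA.2. The mean share was 16.8% ± 1.83 after control siRNA, 8.28% ± 0.162 after siRNA.1 and 8.32% ± 1.19 after siRNA.2 (SD, n = 3 each). All control libraries lay above all siRNA libraries, and the share was described without a test. It combines the rise of the death receptors with the fall of TNFRSF10D, and TNFRSF10C contributed little because it was at 0.13 to 0.44 FPKM.

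**Figure D2:**
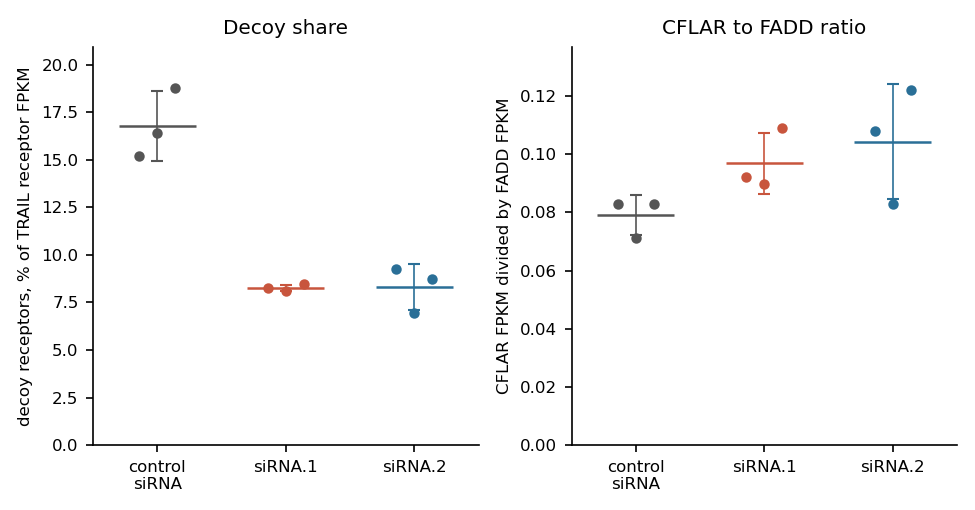
Left, the decoy receptors TNFRSF10C and TNFRSF10D as a percent of the summed FPKM of the 4 TRAIL receptors; right, CFLAR FPKM divided by FADD FPKM; points are libraries, lines means and bars SD (n = 3). The decoy share lies between 15.2% and 18.8% after control siRNA and between 6.97% and 9.24% in the siRNA libraries, while the CFLAR to FADD ratio touches the control range in 1 siRNA.2 library.

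FAS and TNFRSF1A, the death receptors for other ligands, moved less than TNFSF10 and TNFRSF10D. FAS (ENSG00000026103, plus strand, 88990531 to 89017059 of chromosome 10) was at 5.54, 5.58 and 4.54 FPKM after control siRNA, 6.28, 5.82 and 5.71 after siRNA.1, and 5.75, 6.55 and 6.56 after siRNA.2. All siRNA libraries lay above the controls, with a narrow gap. The log2 fold change was 0.16 after siRNA.1 (95% interval -0.01 to 0.33, adjusted p = 0.157, edgeR) and 0.26 after siRNA.2 (SE 0.09, adjusted p = 0.00882, edgeR). The call after siRNA.2 was lost in 6 of 19 alternatives, limma at each pseudocount (adjusted p = 0.0648 to 0.0676) and edgeR without control replicate 3 (log2 0.17, adjusted p = 0.198), siRNA.2 replicate 2 (adjusted p = 0.0639) or siRNA.2 replicate 3 (adjusted p = 0.0757). ACTA2, on the opposite strand, overlaps FAS and had 49 to 111 counts per library.

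TNFRSF1A (ENSG00000067182, minus strand, 6328757 to 6342114 of chromosome 12) was at 25.07, 27.31 and 24.73 FPKM after control siRNA, 27.14, 23.82 and 23.75 after siRNA.1, and 21.82, 24.09 and 23.95 after siRNA.2. The siRNA.1 libraries overlapped the controls, and the siRNA.2 libraries lay just below them. The log2 fold change was -0.07 after siRNA.1 (95% interval -0.18 to 0.04, adjusted p = 0.384, edgeR) and -0.15 after siRNA.2 (SE 0.06, adjusted p = 0.0241, edgeR). The call after siRNA.2 was lost in 6 of 19 alternatives, limma at each pseudocount (adjusted p = 0.159 to 0.163) and edgeR with no filter on low values (adjusted p = 0.0569), without control replicate 2 (log2 -0.11, adjusted p = 0.210) or siRNA.2 replicate 1 (log2 -0.10, adjusted p = 0.262).

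FADD (ENSG00000168040, plus strand, 70203296 to 70207390 of chromosome 11), the adaptor between the death receptors and caspase-8, was at 21.80, 23.02 and 19.89 FPKM after control siRNA, 25.22, 26.31 and 22.77 after siRNA.1, and 25.28, 26.76 and 22.50 after siRNA.2. The lowest library of each siRNA lay below the highest control, so the conditions overlapped. The log2 fold change was 0.17 after siRNA.1 (95% interval 0.02 to 0.33, adjusted p = 0.0853, edgeR) and 0.19 after siRNA.2 (SE 0.08, adjusted p = 0.0437, edgeR). The siRNA.2 call was lost in 11 of 19 alternatives, among them DESeq2 (adjusted p = 0.103) and edgeR without control replicate 1, control replicate 3, siRNA.2 replicate 1 or siRNA.2 replicate 2 (adjusted p = 0.0669, 0.273, 0.0856 and 0.312). With siRNA.1, the adjusted p was 0.0474 without control replicate 2 and 0.0385 without siRNA.1 replicate 3 (edgeR).

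CFLAR (ENSG00000003402, plus strand, 201116154 to 201176687 of chromosome 2), which encodes the caspase-8 homolog c-FLIP, was at 1.81, 1.64 and 1.65 FPKM after control siRNA, 2.32, 2.36 and 2.48 after siRNA.1, and 2.74, 2.22 and 2.74 after siRNA.2. Every siRNA library lay above every control library, and the siRNA.1 and siRNA.2 libraries overlapped. The rise was 1.38-fold after siRNA.1 (log2 0.46, SE 0.07, adjusted p = 3.74e-09, edgeR) and 1.50-fold after siRNA.2 (log2 0.59, SE 0.07, adjusted p = 8.98e-15, edgeR). The gene-level count does not separate the long and short c-FLIP isoforms. CFLAR divided by FADD, in FPKM, was 0.0830, 0.0712 and 0.0830 after control siRNA, 0.0920, 0.0897 and 0.109 after siRNA.1, and 0.108, 0.0830 and 0.122 after siRNA.2. The ratio had a mean of 0.0791 ± 0.00678, 0.0969 ± 0.0105 and 0.104 ± 0.0197 (SD, n = 3 each), and only the siRNA.1 libraries all lay above the controls. Its absolute value depends on length, because the deposited exonic length of CFLAR is 22479 bases against a coding length of 1440 bases. Per coding length the mean ratio was 0.450 after control siRNA, 0.552 after siRNA.1 and 0.595 after siRNA.2, and in CPM (counts scaled to the library total, without length) it was 1.04, 1.27 and 1.37.

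RIPK1 (ENSG00000137275, plus strand, 3063824 to 3115187 of chromosome 6), the kinase recruited to TNFR1, was at 3.19, 2.71 and 2.81 FPKM after control siRNA, 2.25, 2.45 and 2.30 after siRNA.1, and 2.54, 2.25 and 2.21 after siRNA.2. Every siRNA library lay below every control library. Expression was 0.788-fold of control after siRNA.1 (log2 -0.34, SE 0.09, adjusted p = 5.74e-04, edgeR) and 0.798-fold after siRNA.2 (log2 -0.33, SE 0.09, adjusted p = 9.05e-04, edgeR). The difference between siRNA.2 and siRNA.1 was 0.02 on the log2 scale (95% interval -0.15 to 0.19).

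**Figure D3:**
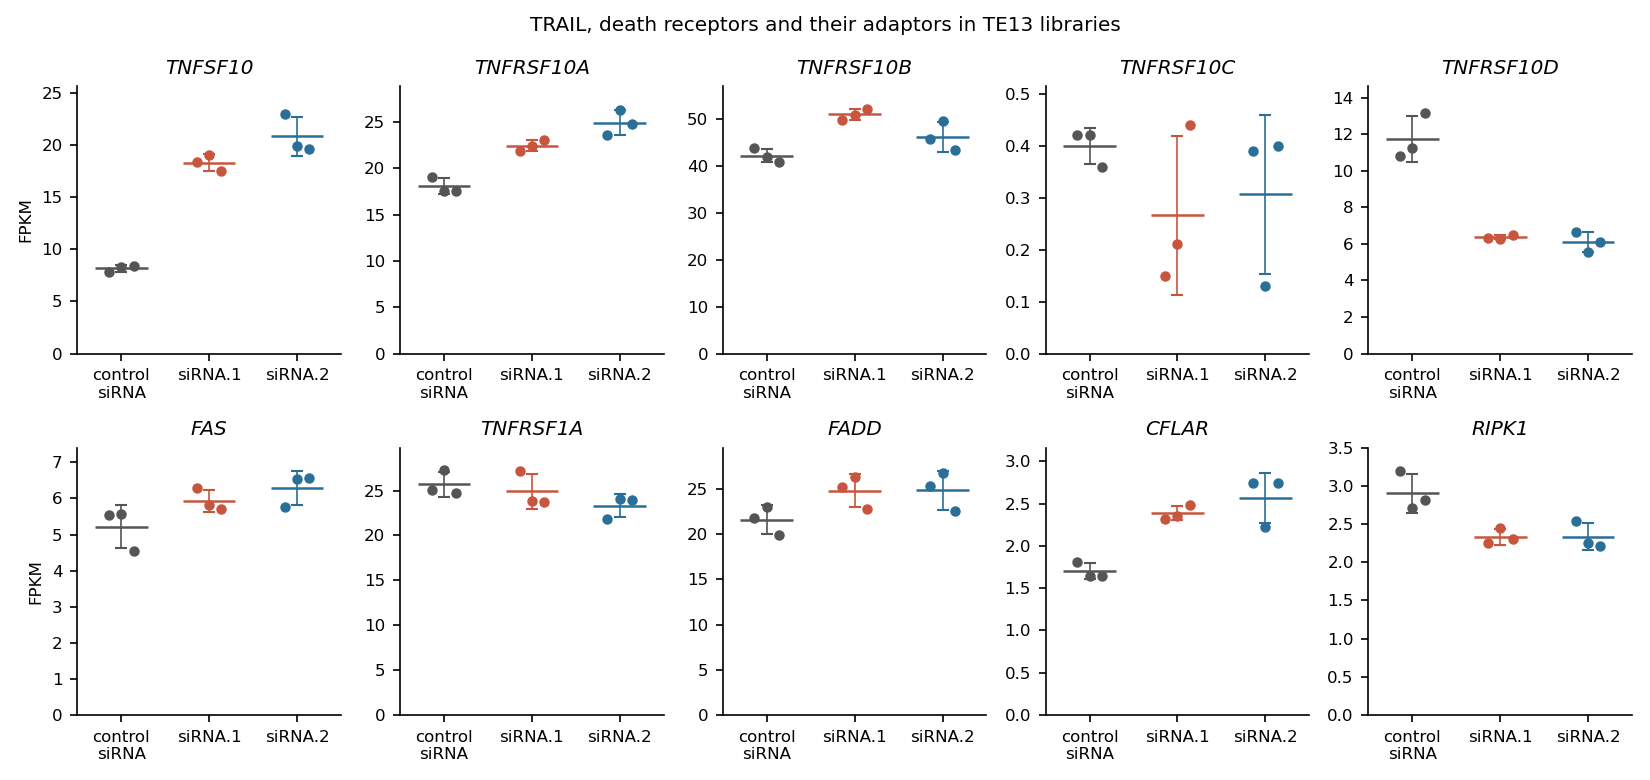
FPKM (y axis, from 0, a separate scale for each gene) of the 10 genes in the 3 libraries of each condition; points are libraries, lines means and bars SD. TNFSF10 lies at 7.79 to 8.36 after control siRNA and 17.46 to 23.00 in the siRNA libraries, TNFRSF10D lies at 10.83 to 13.17 and 5.55 to 6.67, and FADD overlaps between conditions.

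By mean FPKM in the control libraries the order was TNFRSF10B (42.2), TNFRSF1A (25.7), FADD (21.6), TNFRSF10A (18.1), TNFRSF10D (11.7), TNFSF10 (8.16), FAS (5.22), RIPK1 (2.90), CFLAR (1.70) and TNFRSF10C (0.400), and no neighbours in this order overlapped over the 3 libraries. With siRNA.1, TNFSF10 lay above TNFRSF10D without overlap, whereas TNFRSF1A overlapped FADD and FADD overlapped TNFRSF10A. TNFRSF10D also overlapped FAS with siRNA.1, and CFLAR overlapped RIPK1. With siRNA.2, TNFRSF10A overlapped FADD, FADD overlapped TNFRSF1A and TNFRSF1A overlapped TNFSF10. FAS again overlapped TNFRSF10D with siRNA.2, and CFLAR again overlapped RIPK1. The order depends on length. Counted per kilobase of coding sequence, CFLAR (26.5) equalled FAS (26.5) and exceeded RIPK1 (17.6) in the control libraries, while TNFRSF10B (160) and TNFRSF10C (0.795) kept the extremes.

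Compared directly, the 2 PARylator siRNAs gave 2 of 10 genes called, TNFSF10 higher and TNFRSF10B lower with siRNA.2, against 12.2% of all genes tested, 6.10% higher and 6.06% lower. None of these also reached a log2 change of 0.5 in either direction, against 2.29% of all genes. At an unadjusted p under 0.05 in edgeR, 3 of 10 passed, and the share of all genes at that cutoff was not computed. Among genes averaging 1 FPKM or more, 2 of the 9 tested here were called, against 20.2% of all genes. The median difference of the 10 genes was 0.06 on the log2 scale, beside 0.00 over all genes tested. TNFSF10 was higher after siRNA.2 by 0.20 on the log2 scale (95% interval 0.07 to 0.33, adjusted p = 0.0240, edgeR), a call lost in DESeq2 (adjusted p = 0.0527), limma at each pseudocount (adjusted p = 0.155 to 0.158) and edgeR without siRNA.1 replicate 3 (adjusted p = 0.169) or siRNA.2 replicate 1 (adjusted p = 0.293). TNFRSF10B was lower after siRNA.2, at -0.13 (95% interval -0.21 to -0.04, adjusted p = 0.0425, edgeR), a call lost in 8 of 19 alternatives, among them limma at each pseudocount (adjusted p = 0.135 to 0.137) and edgeR with no filter on low values (adjusted p = 0.0835) or without siRNA.1 replicate 3, siRNA.2 replicate 1 or siRNA.2 replicate 3 (adjusted p = 0.226, 0.148 and 0.391). TNFRSF10A differed by 0.17 (95% interval 0.04 to 0.29, adjusted p = 0.0689, edgeR), and the adjusted p was 0.0265 without siRNA.2 replicate 1. For TNFRSF10D the difference was -0.04 (95% interval -0.23 to 0.14) and for CFLAR 0.12 (95% interval -0.01 to 0.26).

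The rest of the extrinsic apoptosis pathway, a list of 50 further ligands, receptors, adaptors, ubiquitin enzymes and caspases, held 48 genes that could be tested. It was likewise chosen with earlier results of these data known. After siRNA.1, 22 were called against 30.3% of all genes tested, 10 higher and 12 lower, and the median over the 48 genes was -0.11 on the log2 scale. After siRNA.2, 27 were called against 30.9%, 9 higher and 18 lower, with a median of -0.13. Directly between the siRNAs 9 were called against 12.2%, 2 higher and 7 lower with siRNA.2, with a median of -0.02. The medians over all genes tested were -0.00, 0.00 and 0.00. Among genes averaging 1 FPKM or more, the share of all genes called was higher, at 46.4% after siRNA.1, 47.2% after siRNA.2 and 20.2% between the siRNAs. At that level 23, 27 and 11 genes of the list were called. How many of the list were tested at that level is not given here. A log2 change of 0.5 or more in either direction was reached by 4 called genes after siRNA.1, against 11.3% of all genes, and by 6 after siRNA.2, against 11.7%, shares of the 48 that lay near the background.

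Among the ligands and receptors of that list, LTB, which encodes lymphotoxin beta, fell from 26.5 ± 1.79 FPKM to 8.96 ± 1.46 after siRNA.1 (log2 -1.58, adjusted p = 1.91e-54, edgeR) and 12.9 ± 1.36 after siRNA.2 (log2 -1.05, adjusted p = 3.20e-27, edgeR; SD, n = 3 each). Its receptor gene LTBR moved the other way, from 26.7 ± 0.696 FPKM to 36.2 ± 1.59 (log2 0.41, adjusted p = 7.61e-17, edgeR) and 32.9 ± 1.68 (log2 0.29, adjusted p = 6.82e-09, edgeR). TNFSF15, which encodes the ligand TL1A, rose from 4.38 FPKM to 6.86 (log2 0.62) after siRNA.1 and 6.10 (log2 0.47) after siRNA.2, with adjusted p of 1.53e-14 and 9.98e-09 (edgeR). SPPL2A, a membrane protease that cleaves TNF-family ligand stubs, fell by 0.79 after siRNA.1 and by 0.63 after siRNA.2 on the log2 scale (adjusted p = 7.79e-42 and 3.16e-28, edgeR). TNFRSF21, which encodes death receptor DR6, was called in opposite directions, at 0.18 after siRNA.1 and -0.17 after siRNA.2 (adjusted p = 0.00836 and 0.0131, edgeR).

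Among the adaptors and ubiquitin enzymes that act at TNF receptors, TRAF3 rose by 0.40 after siRNA.1 and 0.53 after siRNA.2 on the log2 scale (adjusted p = 7.91e-11 and 7.22e-19, edgeR). RBCK1 and SHARPIN, which encode the HOIL-1 and SHARPIN subunits of the linear ubiquitin ligase, also rose, at 0.55 and 0.42 for RBCK1 (adjusted p = 1.14e-18 and 1.46e-11, edgeR) and at 0.30 and 0.25 for SHARPIN (adjusted p = 2.00e-04 and 0.00270, edgeR). The inhibitor of apoptosis genes BIRC3 and XIAP fell. BIRC3 changed by -0.48 and -0.71 (adjusted p = 1.38e-17 and 2.34e-38, edgeR), and XIAP, whose product binds and inhibits caspases, went from 9.45 ± 0.688 FPKM to 6.92 ± 0.886 (adjusted p = 5.67e-13, edgeR) and 7.30 ± 0.197 (adjusted p = 6.66e-09, edgeR). TRAF1 fell as well, by 0.39 and 0.51 on the log2 scale (adjusted p = 0.00529 and 1.05e-04, edgeR). PEA15, which encodes a death effector domain protein, was called higher after siRNA.1 at 0.16 and lower after siRNA.2 at -0.12 (adjusted p = 8.02e-04 and 0.0113, edgeR).

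Among the caspases and their substrates, CASP8, the initiator caspase that FADD recruits, was at 2.51 ± 0.159 FPKM after control siRNA, 2.30 ± 0.167 after siRNA.1 and 2.37 ± 0.215 after siRNA.2, and its log2 fold changes of -0.16 (95% interval -0.38 to 0.07) and -0.09 (95% interval -0.31 to 0.12) did not pass the test (adjusted p = 0.332 and 0.593, edgeR). CASP10 was near the detection limit, at 0.150 FPKM after control siRNA, and was not called (adjusted p = 0.183 and 0.176, edgeR). CASP6, which encodes an effector caspase, fell by 0.34 after siRNA.1 and by 0.45 after siRNA.2 on the log2 scale (adjusted p = 0.0144 and 5.97e-04, edgeR). BID, which links caspase-8 to mitochondria, had a log2 fold change of -0.09 after siRNA.1 (adjusted p = 0.271, edgeR) and fell by 0.35 after siRNA.2 (adjusted p = 1.46e-07, edgeR). RIPK3, the necroptosis kinase, was at 0.943 ± 0.122, 0.637 ± 0.287 and 0.660 ± 0.255 FPKM and was not called (adjusted p = 0.122 and 0.161, edgeR).

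**Figure D4:**
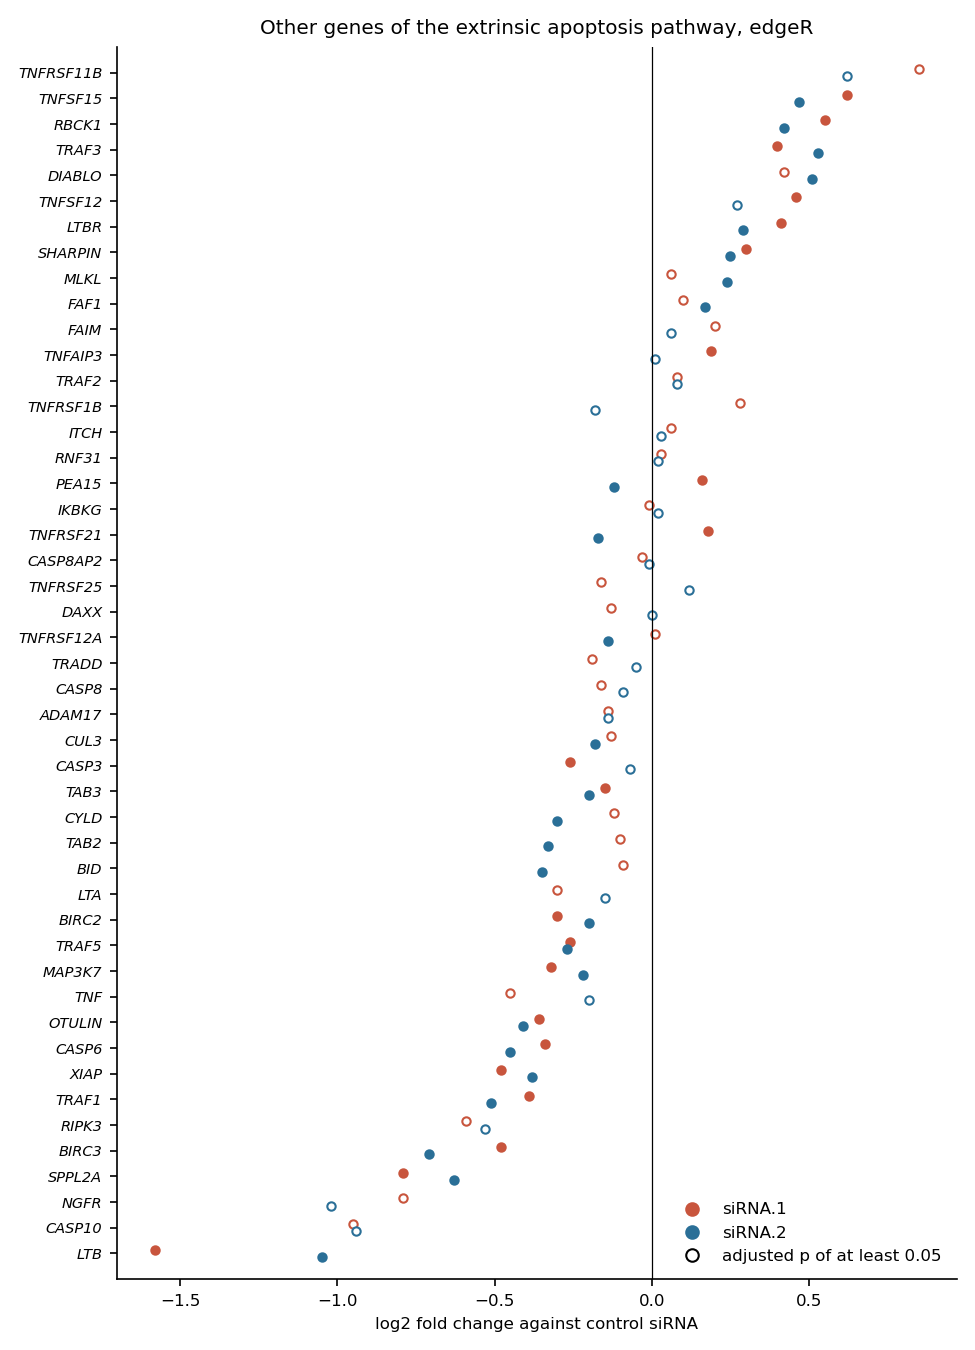
Log2 fold change against control siRNA (x axis) of the tested genes of the extrinsic apoptosis list, 1 of the 48 not shown (y axis, ordered by the mean of both siRNAs) after siRNA.1 and siRNA.2; open circles have an adjusted p of at least 0.05 in edgeR. LTB lies farthest to the left at -1.58 and -1.05, and TNFRSF21 and PEA15 are filled on both sides of 0.

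The genes whose levels followed TNFSF10 most closely over the 9 libraries, by Pearson's r of log2(CPM + 1) among 7149 genes averaging 5 FPKM or more, were MTIF2 (0.997), PNPT1 (0.995), SOX9 (0.994), SARS1 (0.994) and NAMPT (0.993). For CFLAR they were RNF26 (0.986), ABRAXAS2 (0.985), TRIM5 (0.970), WDR75 (0.968) and ERO1A (0.967). For FAS they were RSPO4 (0.948), BTBD2 (0.932), TRAPPC2L (0.928), UBAC2 (0.919) and GEMIN4 (0.918). The points share libraries and fall into conditions, so these values describe a common pattern over the conditions and carry no p.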

How the data were processed

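RNA-seq of TE13 cells (9 libraries, 3 conditions) was sequenced on an Illumina NovaSeq instrument. The authors used STAR for alignment to GRCh38 and featureCounts for gene counts. Versions, annotation release and strandedness are not given in the sources used here. The authors deposited raw counts per gene, not normalized, and FPKM, which equalled count divided by exonic length and library total within 0.02 in 100.00% of values. Here, counts were tested with edgeR 4.0.16 (TMM, quasi-likelihood) in R 4.3.3, in one fit of the 3 conditions over 21395 genes averaging 0.1 FPKM or more, at a Benjamini-Hochberg adjusted p of 0.05. Standard errors were derived as the size of the log2 fold change over the root of its F statistic. limma 3.58.1 on log2(FPKM + 0.1), with 1 and 0.01 as other pseudocounts, and DESeq2 1.42.0, the tool the study names, were alternatives, beside other scaling, filters, fits and leaving out each library. Totals were 15337917 to 22559998 counts, and TMM factors lay between 0.989 and 1.02. Levels between genes were compared per length. Coding lengths came from GENCODE release 44. Replicates differed by more than sampling noise (chi-square per degree of freedom at least 2.76).

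Members and lists were chosen with earlier results of these data known. Named are all members, LINC00885, of the pathway list the 6 genes in each direction with the largest mean change among those called alike with both siRNAs at a mean of at least 1 FPKM, genes called in opposite directions, CASP8, CASP10, BID, XIAP and RIPK3, and for TNFSF10, FAS and CFLAR the 5 genes most like each. A gene this rule chose is not reported here. FASLG and TNFRSF6B were named because they could not be tested. On simulated counts for siRNA.1 against control siRNA, edgeR recovered 43 of 43 genes changed by 1 on the log2 scale and 47 of 63 changed by 0.5 at a mean count of at least 100, and 6 of 49 and 0 of 45 below it, with 3 unchanged genes called. The simulation changed a far smaller share of genes than the 30.3% called in the data. The adjusted p depends on that share, so recovery in the data may differ from these figures.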

Additional observations from a re-analysis of the deposited data

Results flagged for a closer look

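The direct comparison of siRNA.2 with siRNA.1 in edgeR picked out 7 of the genes named, whose levels differed between the 2 siRNAs. TNFSF10 was higher with siRNA.2 by 0.20 on the log2 scale. TNFRSF10B was lower, at -0.13. LTB was less reduced with siRNA.2, with a difference of 0.53 (adjusted p = 9.99e-06, edgeR). BIRC3 was lower with siRNA.2, at -0.23 (adjusted p = 3.91e-04, edgeR). TNFRSF21 differed by -0.35 (adjusted p = 6.43e-08, edgeR) and PEA15 by -0.28 (adjusted p = 7.50e-10, edgeR), and both had opposite signs against control siRNA. BID differed by -0.26 (adjusted p = 6.95e-04, edgeR). With 3 libraries in each condition, no library was tested as an outlier.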

How the results depend on the processing

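Of 567 recomputed log2 fold changes of the 10 genes, 509 kept direction and side of the threshold, 45 lost and 3 gained the call, and 10 changed sign. The calls of TNFSF10, TNFRSF10A, TNFRSF10D, CFLAR and RIPK1 against control siRNA, and that of TNFRSF10B with siRNA.1, held in all 19 alternatives run.

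All sign changes were uncalled differences between siRNA.2 and siRNA.1. With 1 library left out, TNFRSF10C ran from -0.07 to 0.82 (also -0.01), TNFRSF10D from -0.10 to 0.01, FADD from -0.04 to 0.08 and RIPK1 from -0.03 to 0.05 (also -0.01), and RIPK1 was negative in limma (-1.7e-03, -9.1e-04 and -1.8e-03).

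With limma at each pseudocount, 5 of 10 genes were called with siRNA.2 (24.8% to 25.1% of all genes) and 0 between the siRNAs (6.61% to 6.77%; 3 of 10 at an unadjusted p under 0.05). Between the siRNAs, 1 gene was called without the filter on low values (6.91% of all genes), 1 in DESeq2 (10.8%) and 1 with the replicate block (10.9%). With a log2 change of 0.5 or more also required, 2, 3 and 0 genes were called, and 4, 6 and 1 of the pathway list. The shares of all genes were 11.3%, 11.7% and 2.29%. Leaving out 1 library gave 6 to 7 genes with siRNA.1 (26.2% to 30.4% of all genes), 6 to 9 with siRNA.2 (26.6% to 31.4%) and 0 to 2 between them (8.92% to 12.6%), with 0 without siRNA.1 replicate 3 (3 at an unadjusted p under 0.05) and 1 without siRNA.2 replicate 1 or 3. The share of all genes at an unadjusted p was not computed, so the counts at that cutoff have no background beside them. The cause of these moves was not tested.

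Same-numbered libraries did not deviate together (r between -0.147 and 0.063), and libraries with different numbers reached an r of 0.139. Samples collected in pairs with small shared effects would look alike, so whether the numbers paired the samples is not known. The replicate block left 6, 7 and 1 genes called (29.0%, 29.7% and 10.9% of all genes) and ended the siRNA.2 calls of TNFRSF10B and FADD (adjusted p = 0.0520 and 0.0575, edgeR) and the TNFRSF10B difference (adjusted p = 0.0705, edgeR).

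In CPM the decoy share was 13.8%, 6.66% and 6.80% with control siRNA, siRNA.1 and siRNA.2, and per coding length, a scale chosen after seeing the data, 15.6%, 7.67% and 7.85%. The CFLAR to FADD ratio was 1.04, 1.27 and 1.37 in CPM and 0.450, 0.552 and 0.595 per coding length. Depth limits TNFRSF10C, CASP10 and LINC00885, and genes annotated on the same strand overlap TNFRSF10C.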
